A study of Homo sapiens with 12 samples.

Results

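The AP-1 and EGR immediate early genes are described here across HK-2 cells treated with Nnm or with vehicle. The members are FOS, FOSB, FOSL1, FOSL2, JUN, JUNB, JUND, ATF3, EGR1 and IER3, 10 of the 19775 genes that the platform annotation names alone on at least 1 probe set. They were taken as a list of gene names, and the list was chosen with earlier results of these data known. They hold 24 of the 54613 probe sets, and each gene is led by its brightest probe set, judged by the mean of all 12 arrays. Testing required a log2 value above 4 on 3 or more arrays, which 9 of the 10 genes and 20 of their 24 probe sets met, against 10966 of all genes and 22829 of all probe sets.

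HK-2 is an immortalized human line derived from proximal tubule epithelium of the kidney, carried as 1 line, so its replicates share one genetic background. There were 4 groups of 3 arrays, each with total RNA from 1 sample: a high dose of Nnm for 24 h, the same for 48 h, and control cells exposed to vehicle for 24 h or 48 h. Neither the dose of Nnm, a name used as the labels give it, nor the vehicle is stated further. Per the labels' protocols every group came from cells kept in medium with 10 ng/ml EGF and 36 ng/ml hydrocortisone, and treatment began at about 90% confluency, 24 h after seeding. The labels call the replicates biological without naming separate cultures, so the p-values measure the spread between these samples.

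Immediate early genes are transcribed within minutes of a stimulus such as a growth factor or a stress, without new protein synthesis. FOS and JUN proteins carry a basic leucine zipper, and they bind DNA in pairs as the transcription factor AP-1. JUN proteins can pair with each other, while FOS proteins need a partner such as a JUN protein. ATF3 is a leucine zipper factor induced by many stresses, EGR1 is a zinc finger factor induced through ERK signalling and SRF, and IER3 is a short-lived early response protein linked to cell survival. In kidney tubule cells these genes are known to respond to growth factors and to injury. Sampling at 24 h and 48 h does not cover that first response.

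The arrays carried keratins and PAX8 but not the defining proximal tubule transporters. KRT8, KRT18, KRT19, KRT7, VIM, PAX8, CDH2 and CDH6 had group means above log2 4, that is 8 of 16 listed proximal tubule or HK-2 markers found on the array. PAX2, AQP1, ANPEP, MME, GGT1, LRP2, CUBN and SLC34A1 stayed under that level in all 4 groups. Of the markers of other cells, 3 of 7 fibroblast genes (COL1A1, DCN and LUM), 2 of 4 podocyte genes (PODXL and SYNPO) and 1 of 5 endothelial genes (PECAM1) were above it, and 0 of 4 distal nephron and 0 of 4 leukocyte genes. The mean level over the proximal tubule or HK-2 list was 7.02 to 7.20 in control and 6.88 to 7.03 in Nnm arrays at 24 h, and 6.87 to 7.08 and 6.95 to 7.14 at 48 h. That of the podocyte list was 4.36 to 4.51 against 4.55 to 4.76 at 24 h, and 4.34 to 4.54 against 4.58 to 4.77 at 48 h. Of these markers CDH2 alone was called by limma, higher by 0.75 at 48 h (adjusted p = 0.0483). With the replicate number as a block, KRT8 (-0.59, adjusted p = 0.0222) and COL1A1 (-0.80, 0.0334) were also called lower and CDH2 (0.46, 0.0387) and SYNPO (0.60, 0.0462) higher at 24 h, and PODXL (0.71, 0.0308) higher at 48 h. The part of such shifts in the results was not tested. In bulk RNA, more cells with a transcript and more transcript per cell cannot be told apart.

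One pair of arrays stood apart. On the first principal component, which held 57.4% of the variance, control arrays lay between -49.6 and -44.2, the Nnm arrays numbered 1 or 3 lay between 68.6 and 87.8, and those numbered 2 lay at -16.1 (24 h) and -19.8 (48 h). The members are therefore given array by array, with differences both over all arrays and without the Nnm arrays numbered 2. Arrays with one replicate number also deviated together. For the members, values with that number as a block in the fit are given where they change a call. For the related lists the counts with the block are given, with values for some of the named genes.

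The stretches before the start sites of 6 members are shown first, because these genes are themselves read by the kinds of factor they encode, and because the members that share a short motif can then be compared in their levels. RefSeq promoter windows of build GRCh38.p14 matched 8 of the 10 members by symbol, and FOSL1 and IER3 are named only. The 250 bases before the start are printed 5′ to 3′ in the direction of transcription, with capitals marking every match to the motifs listed after them, a match on the opposite strand being capitalised as it reads here (ACGTCA for the core). For ATF3, which has 2 windows, the upstream one is printed.
FOS, chr14:75278578-75278827, + strand: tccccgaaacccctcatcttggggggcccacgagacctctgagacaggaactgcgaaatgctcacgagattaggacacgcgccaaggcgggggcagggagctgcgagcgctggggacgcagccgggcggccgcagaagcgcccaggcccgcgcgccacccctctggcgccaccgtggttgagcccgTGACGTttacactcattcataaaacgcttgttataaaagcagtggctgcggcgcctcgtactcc
FOSL2, chr2:28392608-28392857, + strand: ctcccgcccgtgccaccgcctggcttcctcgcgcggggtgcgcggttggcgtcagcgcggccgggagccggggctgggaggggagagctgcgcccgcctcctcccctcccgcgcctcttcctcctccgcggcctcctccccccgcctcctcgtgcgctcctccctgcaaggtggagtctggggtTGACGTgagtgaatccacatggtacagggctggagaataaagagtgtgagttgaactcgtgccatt
JUN, chr1:58784048-58784297, - strand: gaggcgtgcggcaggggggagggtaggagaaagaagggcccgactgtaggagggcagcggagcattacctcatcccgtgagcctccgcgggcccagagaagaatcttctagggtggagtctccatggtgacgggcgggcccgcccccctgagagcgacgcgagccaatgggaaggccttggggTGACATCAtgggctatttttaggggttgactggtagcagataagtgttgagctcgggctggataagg
JUND, chr19:18281623-18281872, - strand: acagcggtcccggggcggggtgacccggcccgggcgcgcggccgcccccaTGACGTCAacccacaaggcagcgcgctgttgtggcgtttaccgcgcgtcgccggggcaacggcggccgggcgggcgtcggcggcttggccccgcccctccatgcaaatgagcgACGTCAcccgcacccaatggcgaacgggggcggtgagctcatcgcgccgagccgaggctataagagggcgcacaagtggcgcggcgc
ATF3, chr1:212565157-212565406, + strand: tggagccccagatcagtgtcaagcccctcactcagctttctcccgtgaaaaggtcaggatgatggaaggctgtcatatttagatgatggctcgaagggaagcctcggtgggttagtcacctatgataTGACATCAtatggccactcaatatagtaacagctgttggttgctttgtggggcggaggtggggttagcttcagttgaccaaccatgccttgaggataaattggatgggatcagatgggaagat
EGR1, chr5:138465229-138465478, + strand: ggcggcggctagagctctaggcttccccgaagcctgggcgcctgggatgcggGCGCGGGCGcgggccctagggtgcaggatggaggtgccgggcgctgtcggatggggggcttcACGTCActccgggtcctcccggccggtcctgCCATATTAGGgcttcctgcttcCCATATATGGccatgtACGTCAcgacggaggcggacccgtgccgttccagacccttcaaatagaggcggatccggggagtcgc

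The motifs searched, on both strands and with overlaps allowed, were the AP-1 site TGACTCA, the variant TGACATCA, the full cAMP response element TGACGTCA, its core TGACGT, the EGR site GCGNGGGCG and the CArG box that SRF reads. The core lies inside the full element, so JUND counts under both. TGACATCA stood 67 bases before the JUN start and 123 bases before the printed ATF3 start, and 2.37% of all 35116 windows of that length held it. The core TGACGT was in 5 of 8 members (FOS, FOSB, FOSL2, JUND and EGR1), against 7.1% of all windows. The full element was in JUND, 200 bases before its start (1.65% of windows). EGR1 alone among the 8 had CArG boxes, CCATATTAGG and CCATATATGG, at 105 and 83 bases before its start, where 1.16% of windows had one, and it alone held GCGNGGGCG (8.41%). TGACTCA was in 0 of the 8, against 4.2% of windows. These are letters in a window and not measured binding.

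Some of the 9 tested members were higher with Nnm and others lower. At 24 h JUND fell, and at 48 h FOSL2 and IER3 rose, at an adjusted p under 0.05 in the limma fit over all 12 arrays with Benjamini-Hochberg adjustment over all tested probe sets. So 1 of 9 was called at 24 h, where 14.7% of all tested probe sets were called (7.32% higher and 7.42% lower), and 2 of 9 at 48 h, where 10.2% were called (5.74% higher and 4.44% lower). At an unadjusted p under 0.05 there were 4 of 9 at each time, where 35.8% of all tested probe sets met it at 24 h and 30.6% at 48 h. The 24 h share lies near that of all probe sets, and 9 genes are too few to read the 48 h share further. The largest differences in means, those of ATF3, FOSL1 and FOS at 24 h, did not pass.

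**Figure D1:**
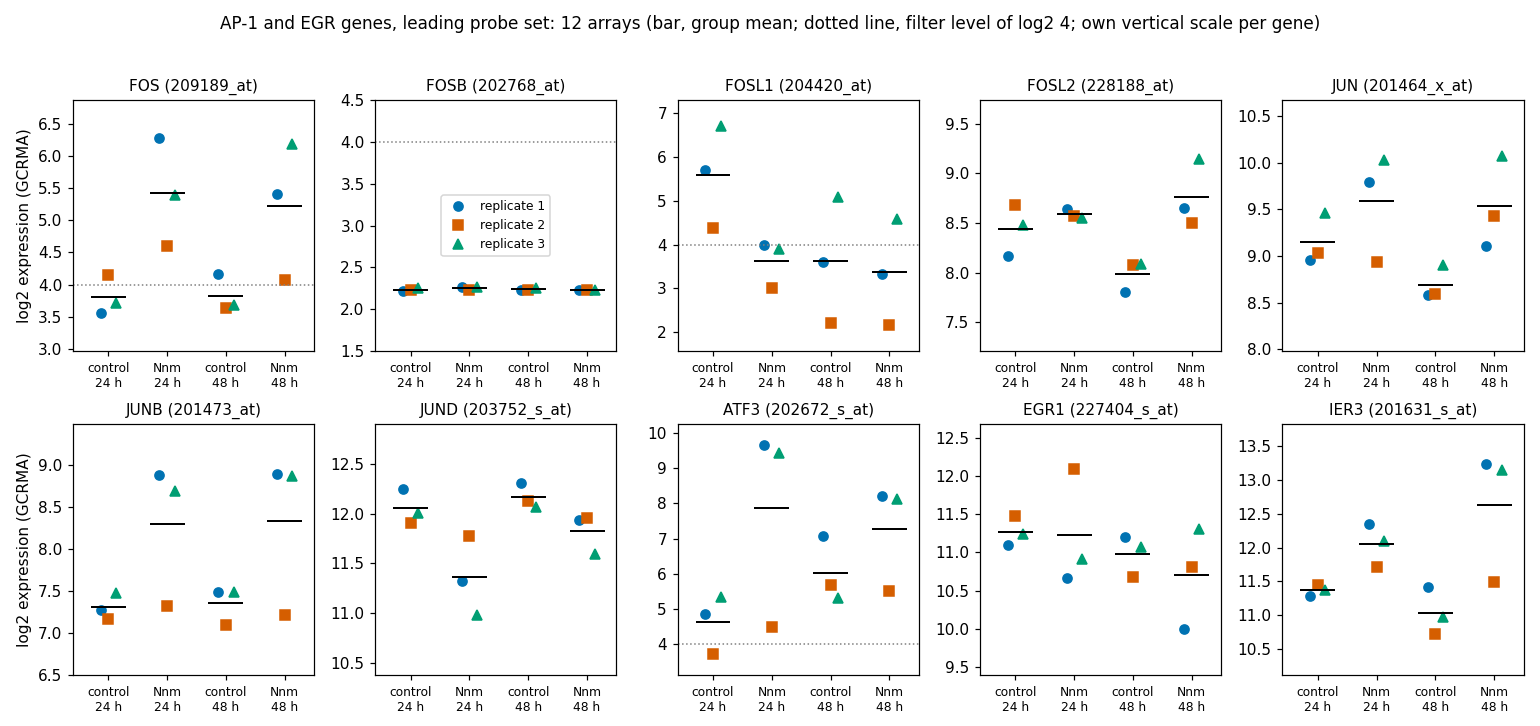
Log2 expression (GCRMA) of the leading probe set of each of the 10 genes on 12 arrays, by group, with replicate numbers as colours and shapes, group means as bars and the filter level of log2 4 as a dotted line; each panel has its own vertical scale. JUNB, ATF3 and IER3 stand high in Nnm replicates 1 and 3 and near the controls in Nnm replicate 2, FOSL1 is highest in control cells at 24 h, and FOSB lies near 2.2 throughout.

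FOS (209189_at), the founding member of its family and a labile partner of JUN, was low in control cells. Its log2 level was 3.56, 4.15 and 3.71 in control replicates 1, 2 and 3 at 24 h, and 6.27, 4.61 and 5.39 with Nnm. At 48 h it was 4.16, 3.64 and 3.69 in control cells and 5.41, 4.08 and 6.18 with Nnm. All 3 Nnm arrays lay above all control arrays at 24 h, while at 48 h Nnm replicate 2 lay inside the control range. The difference was 1.61 ± 0.52 (SE) at 24 h (adjusted p = 0.0588) and 1.39 ± 0.52 at 48 h (adjusted p = 0.102), and with the replicate block the 24 h value was called (adjusted p = 0.0373) and the 48 h value was not (0.0658). Both control means were under the filter level, so in the measured means Nnm cells were at least 2.68-fold higher at 24 h and at least 2.33-fold at 48 h. FOS passed the filter through its Nnm arrays, since all 6 Nnm arrays, but only 1 control array at each time, were above log2 4. Its p-values therefore add no support.

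FOSB (202768_at), a close relative of FOS, was listed between 2.22 and 2.27 on all 12 arrays and was not tested.

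FOSL1 (204420_at), which encodes FRA1, a FOS relative that lacks the strong activation domain of FOS and is known for lasting expression under ERK signalling, was highest in control cells at 24 h. There it measured 5.71, 4.38 and 6.71 in replicates 1, 2 and 3, against 3.99, 3.00 and 3.91 with Nnm. At 48 h it measured 3.60, 2.20 and 5.08 in control cells and 3.34, 2.16 and 4.60 with Nnm. The groups did not overlap at 24 h and overlapped widely at 48 h. Each control group spread by over 2 log2 units, with replicate 2 lowest and replicate 3 highest in control cells at both times. Same-numbered arrays differed by -1.72, -1.38 and -2.80 at 24 h and by -0.26, -0.04 and -0.48 at 48 h. The 24 h difference of -1.97 ± 0.82 (SE) was not called (adjusted p = 0.117), and was with the replicate block (-1.97 ± 0.32, adjusted p = 0.00995). FOSL1 passed the filter through the group where it is high, since the 3 control arrays of 24 h make up most of its 5 arrays above log2 4, so these p-values add no support. Nnm cells at 24 h averaged under the filter level, so control cells were at least 3.03-fold higher in the measured means, and at 48 h both means were under it.

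In control cells FOSL1 also read lower at 48 h than at 24 h in every numbered replicate, with differences of -2.11, -2.18 and -1.63. That difference of -1.97 ± 0.82 was not called over all arrays (adjusted p = 0.595) nor with the block (0.0715), and the difference between the Nnm effects at the 2 times, 1.71 ± 1.16, was not called either (adjusted p = 0.811, and 0.479 with the block). In order of mean, FOSL1 ran from control cells at 24 h (5.60 ± 1.17, SD, n = 3) to Nnm at 24 h (3.63 ± 0.55), control at 48 h (3.63 ± 1.44) and Nnm at 48 h (3.37 ± 1.22). The last 3 groups lay within each other's spread.

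FOSL2, which encodes FRA2 and is known to come later and last longer than FOS, had 5 tested probe sets that did not move alike. On the leading set (228188_at) it read 8.17, 8.68 and 8.48 in control cells and 8.64, 8.57 and 8.55 with Nnm at 24 h. At 48 h it read 7.81, 8.08 and 8.08 in control cells and 8.65, 8.49 and 9.14 with Nnm. The 48 h groups did not overlap and FOSL2 rose by 0.77 ± 0.19 (SE), or 1.71-fold (adjusted p = 0.0319), while at 24 h the change was 0.15 (adjusted p = 0.611). In the group means Nnm cells differed little between the times (8.59 ± 0.05 and 8.76 ± 0.34, SD), and control cells went from 8.44 ± 0.26 to 7.99 ± 0.16, a difference limma did not call (adjusted p = 0.592).

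Of the other 4 FOSL2 probe sets none was called at either time, with adjusted p from 0.0830 up at 24 h and from 0.214 up at 48 h. At 24 h all 4 were lower with Nnm, by differences from -1.10 to -0.22, where the leading set was higher. At 48 h 3 of the 4 were higher (0.71, 0.43 and 0.06) and 1 lower (-0.18). The mean over the 5 sets was 0.36 higher at 48 h and not called (adjusted p = 0.449), so the FOSL2 call, though not the higher level, belongs to 1 probe set. Leaving out either of Nnm replicates 1 and 3 or any 1 of the 3 control arrays also ended the call (adjusted p between 0.0691 and 0.112).

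**Figure D2:**
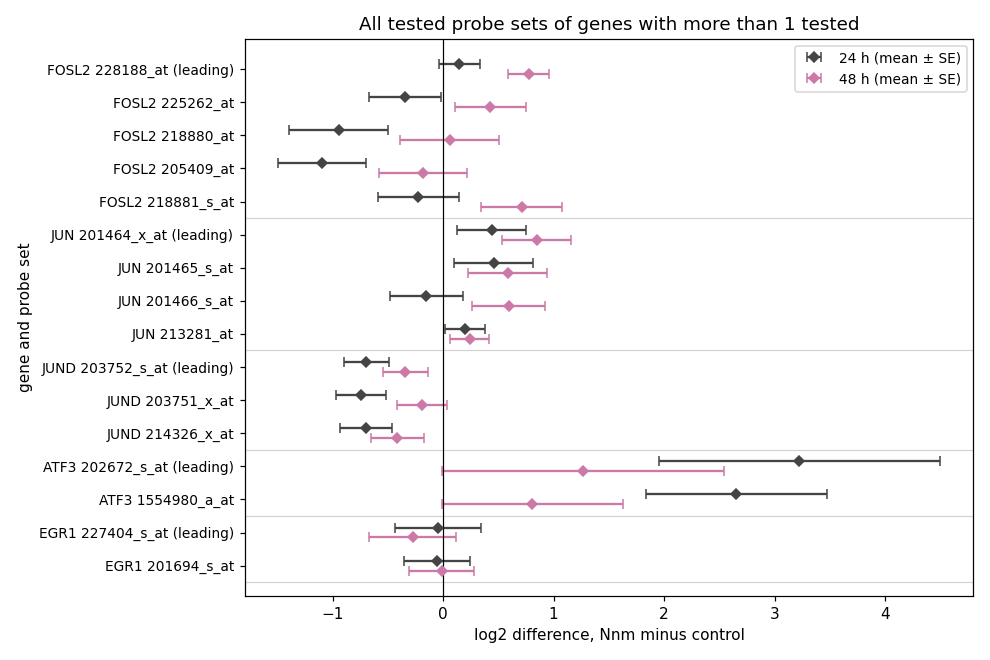
Log2 difference between Nnm and control, with its SE from limma, at 24 h and 48 h for every tested probe set of the 5 genes with more than 1 tested. The 3 JUND sets lie below 0 at both times and the 2 ATF3 sets above it, while 4 of 5 FOSL2 sets are below 0 at 24 h and 4 of 5 above it at 48 h.

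JUN, the main DNA-binding partner in AP-1, was not called at either time in the fit over all arrays. Its leading set, 201464_x_at, is of the kind whose name marks probes that may also bind other transcripts. It read 8.96, 9.03 and 9.46 in control replicates 1, 2 and 3 at 24 h and 9.79, 8.94 and 10.03 with Nnm. At 48 h it read 8.58, 8.59 and 8.90 in control cells and 9.11, 9.43 and 10.08 with Nnm, where the groups did not overlap. The differences were 0.44 ± 0.31 (SE) at 24 h (adjusted p = 0.335) and 0.85 ± 0.31 at 48 h (adjusted p = 0.0994), the second called with the replicate block (0.0280). All 4 JUN probe sets were higher with Nnm at 48 h, by 0.24 to 0.85, and 3 of 4 at 24 h, with 0 called at either time. The 24 h differences ran from -0.15 to 0.46.

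JUNB (201473_at), which can dampen the action of JUN, split by replicate. At 24 h it measured 7.27, 7.17 and 7.47 in control cells and 8.88, 7.32 and 8.69 with Nnm, and at 48 h 7.48, 7.10 and 7.48 against 8.90, 7.21 and 8.87. Nnm replicates 1 and 3 were more than 1 log2 unit above every control array at both times, and Nnm replicate 2 lay inside the control range. The difference was 0.99 ± 0.48 at 24 h and 0.97 ± 0.48 at 48 h (SE), neither called (adjusted p = 0.163 and 0.198), and the block called the 24 h value (0.0446) and not the other (0.0555). Without the Nnm arrays numbered 2 the differences were 1.48 and 1.53.

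JUND (leading set 203752_s_at), the JUN relative that most cells express steadily and that is known to restrain growth, went the other way. At 24 h it measured 12.25, 11.91 and 12.005 in control cells and 11.32, 11.78 and 10.97 with Nnm. At 48 h the values were 12.31, 12.13 and 12.07 in control cells and 11.93, 11.95 and 11.60 with Nnm. Every Nnm array lay below every control array of its time, by a gap of 0.13 at 24 h and 0.11 at 48 h. JUND fell by 0.70 ± 0.20 on the log2 scale at 24 h, 1.62-fold (adjusted p = 0.0444), and at 48 h the difference was -0.34 ± 0.20 (adjusted p = 0.277). The other 2 tested JUND probe sets differed by -0.75 and -0.70 at 24 h and just missed the threshold (adjusted p = 0.0511 and 0.0671). The call was lost without Nnm replicate 1 (adjusted p = 0.146) or 3 (0.158), without control replicate 1 (0.137), 2 (0.0669) or 3 (0.121), and after quantile normalization (0.0552), with the value between -0.77 and -0.50 in these fits.

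ATF3 (leading set 202672_s_at) showed the widest range of the 9 tested genes, 5.97 log2 units over the 12 arrays. It read 4.84, 3.71 and 5.34 in control replicates 1, 2 and 3 at 24 h, and 9.68, 4.47 and 9.43 with Nnm. At 48 h it read 7.08, 5.67 and 5.30 in control cells and 8.21, 5.49 and 8.13 with Nnm. Nnm replicates 1 and 3 stood above every control array at both times, and Nnm replicate 2 lay within the control range at both. Over all arrays the differences of 3.23 ± 1.28 (SE) at 24 h and 1.27 ± 1.28 at 48 h were not called (adjusted p = 0.102 and 0.534), and the block called the first (0.0289). At 24 h it ranked as the 12th largest rise of 10966 tested genes by the difference in means. Without the Nnm arrays numbered 2 the differences were 4.92 and 2.16.

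The second tested ATF3 probe set gave 2.65 at 24 h (adjusted p = 0.0532) and 0.81 at 48 h (adjusted p = 0.535), in the same order. That set passed the filter mainly through Nnm arrays, and its control means, 3.37 at 24 h and 3.99 at 48 h, were under log2 4. Its p-values therefore add no support, and its differences are measured against control levels under the filter. The remaining set lay near 2.1 on every array. Control cells differed between times on the leading set, from 4.63 ± 0.84 (SD, n = 3) at 24 h to 6.01 ± 0.94 at 48 h, a difference limma did not call (adjusted p = 0.842). The smaller 48 h difference thus came with a higher control mean and a slightly lower Nnm mean (7.86 ± 2.94 and 7.28 ± 1.55), and the change of the Nnm effect with time, -1.96 ± 1.80 (SE), was not called (adjusted p = 0.851).

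EGR1 (leading set 227404_s_at) had no shared direction. At 24 h it measured 11.10, 11.48 and 11.23 in control cells and 10.66, 12.08 and 10.92 with Nnm, and at 48 h 11.20, 10.68 and 11.06 against 10.00, 10.81 and 11.31. Groups overlapped at both times, with Nnm replicate 2 the highest array at 24 h and Nnm replicate 1 the lowest at 48 h. The differences were -0.05 ± 0.39 (SE, adjusted p = 0.945) and -0.28 ± 0.39 (adjusted p = 0.669). The sign of the 24 h difference turned when Nnm replicate 1 (0.23) or 3 (0.10) or control replicate 2 (0.06) was left out, and that of the 48 h difference without Nnm replicate 1 (0.08). A second probe set gave -0.06 and -0.02. EGR1 is the member whose printed window holds the CArG boxes.

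IER3 (201631_s_at) was higher with Nnm at both times, and most at 48 h. It read 11.29, 11.44 and 11.37 in control replicates 1, 2 and 3 at 24 h and 12.35, 11.71 and 12.10 with Nnm. At 48 h the control arrays read 11.42, 10.72 and 10.98 and the Nnm arrays 13.23, 11.49 and 13.15. The groups did not overlap at either time, by 0.26 at 24 h and 0.07 at 48 h, and Nnm replicate 2 was the lowest Nnm array each time. The difference of 0.68 ± 0.40 (SE) at 24 h was not called (adjusted p = 0.248), and at 48 h IER3 rose by 1.58 ± 0.40, or 3.00-fold (adjusted p = 0.0370). Same-numbered arrays differed by 1.81, 0.77 and 2.17 at 48 h. The call was lost when Nnm replicate 1 (adjusted p = 0.143) or 3 (0.140) or control replicate 1 (0.0742), 2 (0.109) or 3 (0.107) was left out, with values from 1.28 to 1.77. By mean the order was control at 48 h (11.04 ± 0.35, SD), control at 24 h (11.37 ± 0.08), Nnm at 24 h (12.05 ± 0.32) and Nnm at 48 h (12.62 ± 0.99), in which the control groups overlapped each other, as did the Nnm groups.

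**Figure D3:**
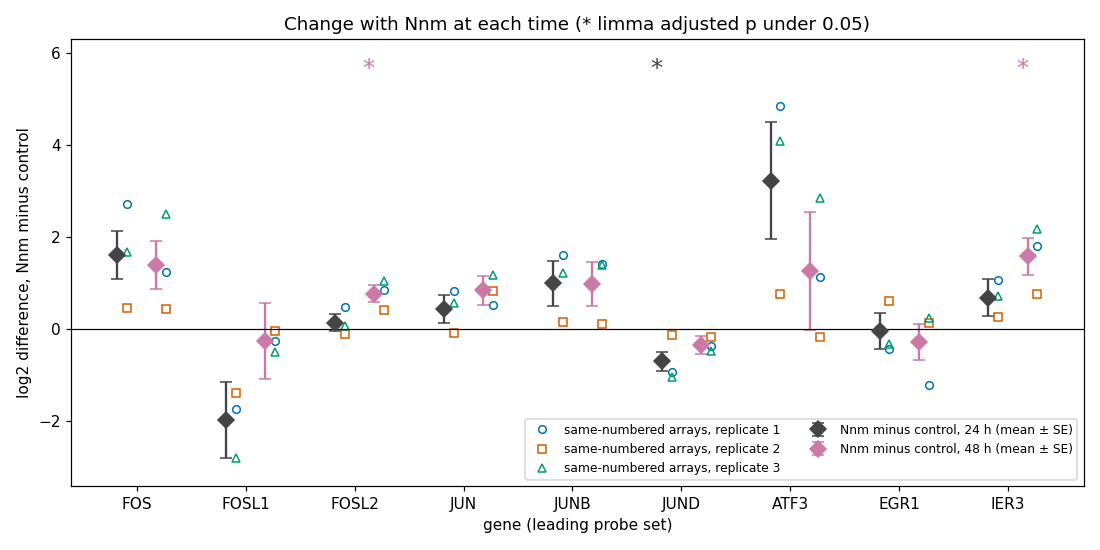
Log2 difference between Nnm and control for the 9 tested genes at 24 h and 48 h: diamonds are the limma estimates with their SE, open symbols the differences between same-numbered arrays, and stars the calls. Replicate 2 (open squares) lies nearest to 0 for JUNB, JUND, ATF3 and IER3 at both times, and FOSL1 is below 0 in all 3 pairs at 24 h.

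Counted over the members, groups did not overlap for 4 of 9 genes at 24 h (FOS and IER3 higher, FOSL1 and JUND lower) and for 4 of 9 at 48 h (FOSL2, JUN and IER3 higher, JUND lower). Over all tested probe sets that share was 37.2% at 24 h (18.4% higher and 18.9% lower) and 34.8% at 48 h (18.7% higher and 16.1% lower), so the members' 44.4% is near it. The median change of the 9 was 0.44 at 24 h and 0.85 at 48 h, where that of all tested probe sets was -0.01 and 0.01. FOS and FOSL1 are among the 9 and passed the filter through the group where they are high. Their p-values and non-overlap add no support, so the medians and member counts of this paragraph describe and do not test. With the replicate block, 3 members were called higher (FOS, JUNB and ATF3) and 2 lower (FOSL1 and JUND) at 24 h, against 29.3% of all probe sets, and at 48 h 3 were called higher (FOSL2, JUN and IER3) against 22.1%. Without the Nnm arrays numbered 2, 6 of 9 were called at each time, 5 higher and 1 lower at 24 h and 6 higher at 48 h, but then 47% and 42.1% of all probe sets were called. These arrays were left out because they lie near the controls, so those p-values do not test the genes.

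By limma no member was called between times. For the change of the Nnm effect from 24 h to 48 h, for control cells and for Nnm cells, 0 of 9 were called and 0 of all 22829 probe sets (0%), with an unadjusted p under 0.05 for 1, 2 and 1 of the 9 and for 6.21%, 8.04% and 13.7% of all tested probe sets. The unadjusted ones were FOSL2 for the first, FOSL1 and FOSL2, both lower at 48 h, in control cells, and JUND, higher at 48 h, in Nnm cells. Without the Nnm arrays numbered 2, IER3 was called for a larger Nnm effect at 48 h (11.2% of all probe sets were called) and JUND and IER3 were called higher at 48 h in Nnm cells (21.8%).

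Likeness of profiles was measured as the root mean square difference over the 12 arrays between log2 values, each centred on its own mean, for the 7 members with an SD over the arrays above 0.5. Among these, JUNB and IER3 were the nearest pair (0.35), followed by FOS with JUNB (0.40) and FOS with IER3 (0.46). FOSL1 and ATF3 were the farthest apart (2.43). The values were not scaled, so this measure grows with the spread of each gene as well as with unlike patterns. ATF3 and FOSL1 had the largest SDs over the arrays, 1.99 and 1.35. Outside the members, out of 10957 genes, the nearest profile was that of NPL for FOS (0.32), LINC00973 for FOSL1 (0.57), FBXO28 for JUN (0.19), LINC00662 for JUNB (0.16), CHAC1 for ATF3 (0.67), MTMR11 for EGR1 (0.31) and RCC1 for IER3 (0.21). FOS, JUNB, ATF3 and IER3 all stood lower in the Nnm array numbered 2 than in the other Nnm arrays of the same time, the order in which these arrays also lay on the first principal component.

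Partners that AP-1 proteins can pair or compete with moved in both directions. Of 12 tested genes in a list of related leucine zipper factors, CREM and ATF2 rose and BATF3 fell at 24 h, and 0 were called at 48 h, against 14.7% and 10.2% of all tested probe sets. With the block 2 rose and 2 fell at 24 h, CREB1 (-0.54, adjusted p = 0.158, and 0.0324 with the block) joining BATF3, and 2 rose at 48 h. Of all tested probe sets 29.3% and 22.1% were called with the block. CREM, whose products include inducible repressors of cAMP response elements, went from 7.41 ± 0.14 to 9.00 ± 0.90 (SD, n = 3, adjusted p = 0.0340) and at 48 h from 6.98 ± 0.38 to 8.39 ± 0.56 (adjusted p = 0.0569, and 0.0266 with the block). ATF2, a partner of JUN at such elements, rose by 1.10 at 24 h (adjusted p = 0.0183). BATF3, a short zipper protein that pairs with JUN proteins, fell by 2.10, from 8.02 ± 0.08 to 5.92 ± 0.78 (adjusted p = 0.0164), and stood at 7.15 ± 0.27 and 5.98 ± 0.74 at 48 h (adjusted p = 0.0883). Leaving out single arrays moved the count called in this list between 0 and 7 at 24 h and between 0 and 4 at 48 h. The median of the list was 0.29 at 24 h and 0.33 at 48 h.

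Zinc finger and nuclear receptor early genes had 2 of 15 tested members risen at 24 h and 0 called at 48 h, against 14.7% and 10.2% of all tested probe sets called. NR4A2, an orphan nuclear receptor induced early by many signals, had a control mean of 2.93 ± 0.08, below the filter, and averaged 5.46 ± 1.87 with Nnm (adjusted p = 0.0465). Its Nnm arrays read 6.65, 3.31 and 6.43, the second near the controls. Only Nnm arrays of NR4A2 were above log2 4, so it was tested only through the group where it is high, and its place in the count adds no support. ZFP36L2, an RNA-binding protein that speeds decay of AU-rich transcripts, rose by 1.45 at 24 h (adjusted p = 0.0359) and differed by 1.28 at 48 h (adjusted p = 0.0603, and 0.0304 with the block). KLF5, a growth-linked factor, had at 48 h the lowest p of the list with -0.63 (adjusted p = 0.0525, and 0.0161 with the block). With the block 5 rose at 24 h, and at 48 h 1 rose and 1 fell, against 29.3% and 22.1% of all tested probe sets called. With 1 array left out, between 0 and 9 of the list were called at 24 h and between 0 and 2 at 48 h. The list median was 0.56 at 24 h and 0.34 at 48 h, where that of all tested probe sets was -0.01 and 0.01. SNAI1 and KLF9, like NR4A2, had only Nnm arrays above log2 4. SNAI1 and NR4A2 are among the 5 that rose with the block at 24 h, so this median and that count describe and do not test.

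Other immediate early genes changed both ways. At 24 h 4 of 24 rose and 2 fell, and at 48 h 4 rose and 1 fell, and with the block 5 rose and 5 fell at 24 h and 7 rose and 2 fell at 48 h. Of all tested probe sets 14.7% and 10.2% were called, and 29.3% and 22.1% with the block. DUSP1, the phosphatase that switches off JNK, p38 and ERK, rose by 0.93 at 24 h (adjusted p = 0.0274) and by 1.05 at 48 h (adjusted p = 0.0217). It read 11.97, 12.05 and 11.65 in the 3 Nnm arrays of 24 h against 10.82, 11.21 and 10.86 in control cells, so that replicate 2 rose with the others. ID3, an inhibitor of helix-loop-helix factors, rose by 1.94 and 1.67 (adjusted p = 0.00453 and 0.00492), also in all 3 replicates. ID1 rose by 0.92 at 24 h and by 1.06 at 48 h (adjusted p = 0.0131 and 0.00843). ID2 rose by 1.29 at 24 h (adjusted p = 0.0285) and differed by 0.98 at 48 h (adjusted p = 0.0712, and 0.0178 with the block). IER5, an early gene induced by stress, differed by 0.96 at 24 h (adjusted p = 0.0526, and 0.0208 with the block). It rose by 1.06 at 48 h (adjusted p = 0.0471).

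MYC, the growth regulator that follows mitogen signals, fell by 0.66 at 48 h (adjusted p = 0.0488), with -0.61 at 24 h (adjusted p = 0.0512, and 0.0460 with the block). The kinase gene PLK2 fell by 2.72 and the matrix gene CCN1 by 2.02 at 24 h (adjusted p = 0.0190 and 0.0184). DUSP6, the phosphatase specific to ERK, measured 12.86 ± 0.28 to 12.59 ± 0.85 at 24 h (adjusted p = 0.598) and 13.32 ± 0.17 to 13.77 ± 0.08 at 48 h (adjusted p = 0.394). Leaving out single arrays moved the count called in this list between 1 and 15 at 24 h and between 2 and 12 at 48 h. The list median was 0.28 at 24 h and 0.42 at 48 h.

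Upstream of the members, of 19 tested genes for kinases, SRF and its partners, 2 rose at 24 h and 4 at 48 h, and 0 fell, against 14.7% and 10.2% of all tested probe sets called. With the block the counts that rose were 2 and 4, and 1 gene fell at 24 h, EGFR, which encodes the EGF receptor (-0.64, adjusted p = 0.0588, and 0.0333 with the block). The shares of all tested probe sets called with the block were 29.3% and 22.1%. MAPK8, which encodes the kinase JNK1 that phosphorylates JUN, rose by 0.80 at 24 h (adjusted p = 0.0326), and MAPK9, for JNK2, by 0.68 at 48 h (adjusted p = 0.0413). MAP3K1, a kinase that can feed into JNK, rose by 0.67 and 0.76 (adjusted p = 0.0478 and 0.0396), and MAP3K5, the stress kinase ASK1, by 1.36 at 48 h (adjusted p = 0.0454). The 48 h Nnm arrays of MAP3K5 read 9.68, 8.04 and 9.71, and the second lay within the control range. ELK3, an SRF partner, rose by 1.28 at 48 h (adjusted p = 0.0323), and SRF itself differed by 0.36 and -0.25 (adjusted p = 0.179 and 0.371). With 1 array left out, between 0 and 4 of the list were called at 24 h and between 0 and 6 at 48 h. The list median was 0.04 at 24 h and -0.02 at 48 h, and these are transcript levels, which say nothing of kinase activity.

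Genes with known AP-1 control did not share a direction. Of 20 tested, 2 fell and 0 rose at 24 h, and at 48 h 2 rose and 1 fell, and with the block 2 rose and 3 fell at 24 h and 4 rose and 3 fell at 48 h. Over all tested probe sets the shares called were 14.7% and 10.2%, and 29.3% and 22.1% with the block. The chemokine gene CXCL8 fell by 2.44 at 24 h (adjusted p = 0.0271) and measured 12.44 ± 0.19 to 12.10 ± 0.76 at 48 h (adjusted p = 0.726). THBS1, a matrix glycoprotein gene, fell by 1.70 at 24 h and by 0.98 at 48 h (adjusted p = 0.0101 and 0.0403). LAMB3, a laminin chain of the basement membrane, rose by 2.69 at 48 h, from 6.80 ± 0.32 to 9.49 ± 1.65 (adjusted p = 0.0302), and the protease inhibitor gene TIMP1 rose by 0.44 (adjusted p = 0.0303). PLAUR, the urokinase receptor, measured 6.56 ± 0.38 to 8.77 ± 1.77 at 48 h (adjusted p = 0.100, and 0.0267 with the block), at 9.60, 6.74 and 9.97 in Nnm replicates 1, 2 and 3. The collagenase gene MMP1 measured 7.65 ± 0.03 to 7.82 ± 1.15 at 24 h and 4.62 ± 1.40 to 5.31 ± 1.42 at 48 h (adjusted p = 0.903 and 0.609). Leaving out single arrays moved the count called in this list between 0 and 6 at 24 h and between 0 and 11 at 48 h. The list median was 0.06 at 24 h and 0.39 at 48 h.

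**Figure D4:**
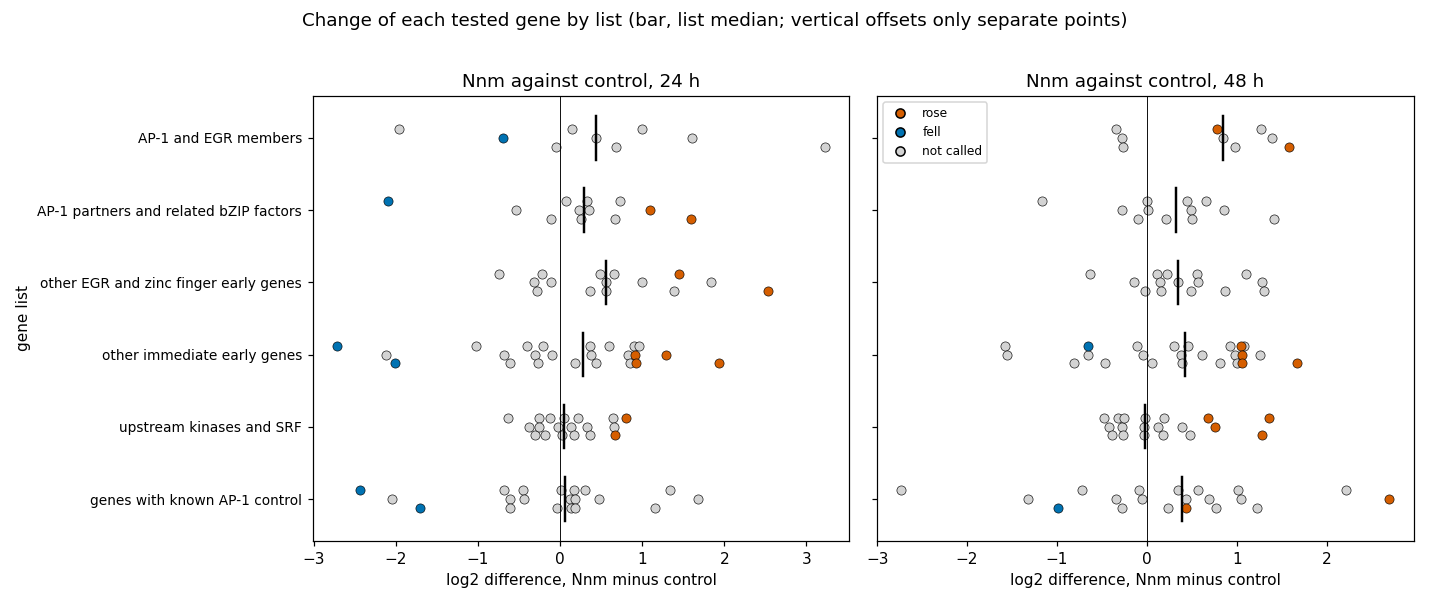
Log2 difference between Nnm and control for each tested gene of the members and of 5 related lists at 24 h and 48 h, coloured by the limma call, with the list median as a bar; vertical offsets only separate points. The members spread from FOSL1 (-1.97) to ATF3 (3.23) at 24 h, and each list but that of the upstream kinases holds a gene that differs by more than 1 log2 unit at 24 h.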

How the data were processed

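Total RNA of 12 HK-2 samples was hybridised to Affymetrix whole-genome arrays. The deposited table holds log2 values made with GCRMA by the authors, per the submitters' processing notes; which arrays entered that step and its version are not given in the sources used here. GCRMA can compress differences of dim probe sets. Of 54675 probe sets, 62 controls were left out. Names came from GEO's platform annotation, in which 41091 probe sets name 1 gene, 1801 several and 11721 none, and 41037 matched RefSeq by gene ID.

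All 4 groups were fitted together with limma 3.58.1 in R 4.3.3 (8 residual degrees of freedom), with Benjamini-Hochberg adjustment over the 22829 probe sets above log2 4 on at least 3 arrays. Folds against a group mean under log2 4 are bounds, computed against that level. No 2 arrays were identical. No counts exist, and the number of arrays limits the precision. In data simulated for the 24 h comparison over 22829 probe sets, the fit recovered 44% of log2 changes of 1 and 77% of log2 changes of 2, with 8 false calls. Only 100 probe sets were changed at each size, with noise drawn independently for each array. In the real 24 h comparison 14.7% were called and arrays deviated together, so these rates do not give the power here.

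Replicate numbers paired the samples by their data, not by a stated link. Deviations from group means correlated at 0.162 to 0.669 (median 0.363) in all 18 same-number pairs. In the 36 others they correlated at -0.655 to 0.372 (median -0.208), so the ranges overlapped while the medians differed. The replicate block was therefore fitted as an alternative. All members are named. From each related list up to 4 called genes of largest change were named, or the 2 of smallest p where fewer than 2 were called. CXCL8, PLAUR, MMP1, DUSP1, DUSP6, MYC and SRF were also named. CDH2, EGFR, CREB1, SNAI1, KLF9 and the markers called with the block were named after their values were seen. The members and lists were chosen with earlier results of these data known.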

Additional observations from a re-analysis of the deposited data

How the results depend on the processing

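With 3 arrays a group and the Nnm arrays numbered 2 near the controls, each member's call rests on few arrays, and dim genes (FOS, FOSL1) lie near the filter. Leaving out 1 array at a time gave 0 to 4 called members at 24 h, 0 to 4 at 48 h, 0 to 1 between the Nnm times, and 0 in the other time comparisons. The shares of all probe sets called without single arrays are not given here. With the replicate block over all arrays 5 members were called at 24 h and 3 at 48 h, against 29.3% and 22.1% of all probe sets. With the block within each time 1 (FOSL1) and 2 were called, and JUND lost its call (adjusted p = 0.0616). The count was 0 at both times with only the 6 arrays compared and 0 at both with no filter, and at 24 h 0 after quantile normalization. With the mean over a gene's probe sets it was 1 at 48 h, and FOSL2 differed by -0.49 at 24 h. With both Nnm arrays numbered 2 left out, 6 were called at 24 h and 6 at 48 h, against 47% and 42.1% of all probe sets. In the same fit 1 was called for the change of the effect (11.2% of all probe sets) and 2 between the Nnm times (21.8%). FOSL1 (0.34) and CXCL8 (0.062) then turned sign at 48 h. Sign also turned when single arrays were left out for EGR1 at 24 h (-0.48 to 0.23) and 48 h (-0.58 to 0.078), FOSL1 at 48 h (-0.97 to 0.46), MMP1 at 24 h (-0.32 to 0.81) and 48 h (-0.12 to 1.48), DUSP6 at 24 h (-0.76 to 0.039) and CXCL8 at 48 h (-0.69 to 0.062). Of these DUSP6 was called without Nnm replicate 2 at 24 h (-0.76, adjusted p = 0.00984), the others in no fit, and the cause was not tested. FOS, FOSL1 and NR4A2 gave no value at a filter of log2 6. Runs on the related lists were chosen after seeing the data.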
